A study of Mus musculus with 6 samples.

Results

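Single nuclei of mouse cerebellum were selected here by their RNA for Eomes, a T-box transcription factor that marks unipolar brush cells. A nucleus was taken when it held at least 2 unique molecular identifiers (UMIs, each standing for 1 captured RNA molecule) of Eomes and when the cell type label given by the authors did not name Purkinje cells, astroglia, oligodendrocyte lineage cells, microglia, macrophages, endothelium or choroid plexus. The rule took 394 of 45473 nuclei. They came from 6 mice of 12 weeks, with 1 library of whole cerebellum per mouse. The 3 SCA1 mice carried the Pcp2-ATXN1[82Q] transgene, in which the Pcp2 promoter, active in Purkinje cells, drives human ATXN1 with a lengthened CAG tract, on a C57BL/6 background. The 3 wild-type (WT) controls were C57Bl6 littermates without the transgene and of the same age. The SCA1 mice gave 89, 44 and 78 of the nuclei (mice 1 to 3) and the WT mice 91, 17 and 75. The library numbers in the labels fall into 2 ranges, 1 holding mouse 1 of each genotype and the other the remaining mice, and these ranges are the only batch the labels give. No value in the labels says that equal mouse numbers mark littermates.

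Unipolar brush cells are excitatory interneurons of the granular layer, most frequent in the vestibular lobules. They arise from the rhombic lip, as granule neurons do, and keep Eomes expression into adulthood. A single mossy fibre contacts the brush of each cell, and the cell passes a prolonged signal to granule neurons. Those rich in the phospholipase PLCβ4 (Plcb4) are excited by glutamate (ON cells), while those rich in calretinin (Calb2) are silenced by it through mGluR2 (OFF cells). Lmx1a, a LIM homeobox factor of the rhombic lip, and the less studied genes Samd3 and Sln are also used as markers of these cells. Granule neurons, the most numerous neurons of the brain, carry the GABA-A receptor subunit α6 (Gabra6) and the protocadherin-like Fat2.

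The Eomes gene lies on chromosome 9 at 118478212 to 118486132 on the plus strand (GRCm38, GENCODE M21) and overlaps an antisense gene, Gm33460. Whether reads were assigned by strand is not given in the sources used here, so reads of these 2 genes cannot be told apart. Of the taken nuclei, 310 held 2 Eomes UMIs, 64 held 3 and 20 held 4 or more, with a highest count of 9. Their median depth was 7942 UMIs (lowest 1471, highest 307650) and 3083 genes. Their counts summed to 1311880, 408384 and 835571 UMIs in the SCA1 mice and to 2571721, 69165 and 1027808 in the WT mice. Values of WT mouse 2 therefore rest on the fewest UMIs. A group of 28 nuclei of at least 30000 UMIs, 24 of them labelled as granule neurons, held 44.7% of all these UMIs and 72.1% of those of WT mouse 1. Mitochondrial RNA was lower in the taken nuclei than in granule-labelled nuclei without Eomes in all 6 mice, at 0.569% to 2.34% against 0.601% to 5.14%. Whole libraries held 18916647 to 98366627 UMIs. Among all nuclei, 254 barcodes occurred in more than 1 library, and 5 barcodes of the selected nuclei were also found in another library, none of them in a second selected nucleus.

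Most of the selected nuclei did not carry the markers of unipolar brush cells. Of the 394, 345 (87.6%) had the authors' label Neuron.Slc17a7.Gabra6, the granule neuron label, named for a vesicular glutamate transporter and Gabra6. Another 34 (8.63%) had the label Neuron.Slc17a6.Sln, and 15 (3.81%) had other labels, 7 of these a label of inhibitory neurons with Pvalb and Nefh. Of the 15, 1 had the label Neuron.Gad1Gad2.Pcp2 and 2 the label Gja1.Htra1, which stand for Purkinje cells and astroglia without naming them, so the rule kept these 3 nuclei. The 15 nuclei of other labels had a median of 26131 UMIs, against 12839 in the Slc17a6.Sln-labelled and 7441 in the granule-labelled ones. At least 2 of the 3 markers Lmx1a, Samd3 and Sln were detected in 33 of the 34 Slc17a6.Sln-labelled nuclei (97.1%), in 1 of the 15 with other labels and in 2 of the 345 granule-labelled ones (0.580%), 339 of which held none of the 3. The nuclei are therefore called Eomes-rich nuclei below, after the rule, and the name unipolar brush cell is not given to the set. Eomes-rich refers to the count of Eomes UMIs, not to their share of all UMIs. A deep nucleus can meet the rule with a small share. In WT mouse 1, whose deepest nucleus held 307650 UMIs, the highest count of Eomes UMIs was 5. The bars of nuclei by label show that granule-labelled nuclei were the largest class in all 6 mice, and that the Slc17a6.Sln label took a different share of the UMIs in each mouse.

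**Figure D1:**
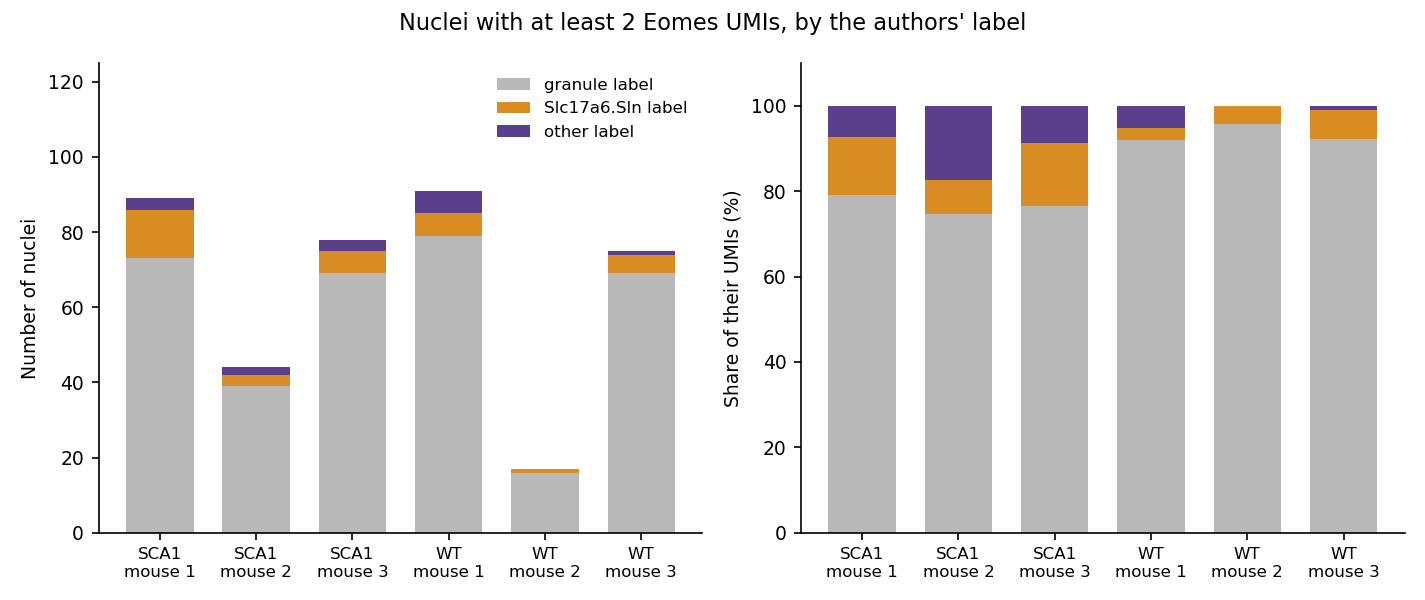
Number of nuclei with at least 2 Eomes UMIs (left) and share of their summed UMIs in percent (right) in each of the 6 mice, stacked by the authors' label. Granule-labelled nuclei made up 82.0% to 94.1% of the nuclei of a mouse, and the Slc17a6.Sln label held 2.80% to 14.7% of the UMIs.

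The 34 nuclei with the Slc17a6.Sln label were high in Lmx1a and Samd3, markers of unipolar brush cells, while some other markers, given below, did not set them apart. The unit of level is CPM, counts per 1000000 UMIs, over the summed nuclei of all mice. Lmx1a was at 501 CPM in these 34 nuclei and detected in 33 of them, against 1.49 CPM in the granule-labelled Eomes-rich nuclei, where 4 of 345 held a UMI. Granule-labelled nuclei without an Eomes UMI, 35409 in number, held Lmx1a at 0.833 CPM. Samd3 stood at 256 CPM in the Slc17a6.Sln-labelled ones and at 0.559 CPM in the granule-labelled ones, against 0.206 CPM in granule-labelled nuclei without Eomes. Gabra6 went the other way, with 64.5 CPM in the Slc17a6.Sln-labelled nuclei, 684 CPM in the granule-labelled Eomes-rich nuclei and 698 CPM in granule-labelled nuclei without Eomes. Fat2 differed less, with 158, 437 and 419 CPM. For each of these genes the granule-labelled Eomes-rich nuclei lay next to the granule-labelled nuclei without Eomes, not next to the Slc17a6.Sln-labelled ones.

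**Figure D2:**
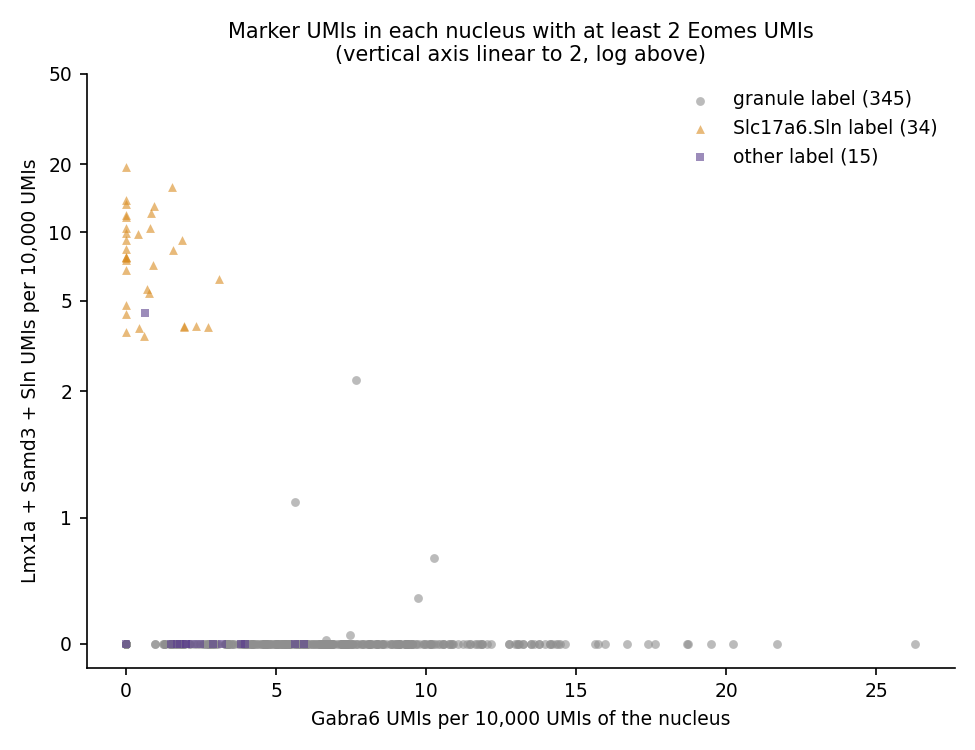
Each point is 1 Eomes-rich nucleus, placed by its Gabra6 UMIs (horizontal) and by the summed UMIs of Lmx1a, Samd3 and Sln (vertical, linear to 2 and logarithmic above), both per 10000 UMIs of the nucleus. The 34 Slc17a6.Sln-labelled nuclei lie at high marker counts, and most of the 345 granule-labelled nuclei lie along the line of no marker UMI.

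Other genes used as markers of unipolar brush cells did not separate the 2 classes. Plcb4, which with Eomes named the set, was at 857 CPM in the Slc17a6.Sln-labelled nuclei, 887 CPM in the granule-labelled Eomes-rich nuclei and 818 CPM in granule-labelled nuclei without Eomes. Calb2 was at 123, 116 and 188 CPM in these sets. Plcb4 and Calb2 RNA was thus found in nuclei of both labels. Slc17a6, the vesicular glutamate transporter VGLUT2 that the label names, was sparse, with 14 UMIs in 8 of the 34 Slc17a6.Sln-labelled nuclei.

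The share of Slc17a6.Sln-labelled nuclei was higher at each higher count of Eomes UMIs. Just outside the rule, at 1 Eomes UMI, 1894 nuclei had labels the rule allows, of which 93.9% were granule-labelled and 1.32% Slc17a6.Sln-labelled. At 2 UMIs, just inside the rule, the shares were 89.7% and 5.81%, at 3 UMIs 85.9% and 12.5%, and at 4 or more 60% and 40%. Lmx1a was detected in 1.85%, 6.13%, 17.2% and 40% of the nuclei in these 4 classes. Only 34 of the 104 Slc17a6.Sln-labelled nuclei of the series reached 2 Eomes UMIs, and of all 104, 89 (85.6%) held at least 2 of the 3 markers. So the rule left out 70 of the nuclei with this label, of which 56 held at least 2 of the markers.

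Eomes RNA itself was found above the level of other neurons in both labels. Slc17a6.Sln-labelled nuclei held Eomes at 130, 95.4 and 104 CPM in the SCA1 mice and at 96.0, 76.4 and 94.7 CPM in the WT mice. Granule-labelled nuclei held it at 8.56, 9.68 and 12.7 CPM in the SCA1 mice and at 8.62, 14.7 and 17.7 CPM in the WT mice. Nuclei of all inhibitory labels, Purkinje label included, held 0.765 to 2.39 CPM, nuclei labelled Neuron.Slc17a6.Nrgn 0 to 2.64 CPM, and the nuclei that the rule leaves out 0.845 to 3.93 CPM. No mouse overlapped between the granule label and these 3 groups of labels, nor between the granule and the Slc17a6.Sln labels. Since a nucleus with more UMIs has more chances to show an Eomes UMI, each nucleus was also thinned to 2000 UMIs drawn at random, and shallower nuclei were set aside. An Eomes UMI was then found in 2.04% of granule-labelled, 16.8% of Slc17a6.Sln-labelled, 0.257% of inhibitory, 0.132% of Slc17a6.Nrgn-labelled and 0.286% of rule-excluded nuclei. Unthinned, the shares were 5.66% for the granule label at a median of 5923 UMIs and 2.06% for the inhibitory labels at a median of 11563 UMIs. The thinning set aside 2693 granule-labelled nuclei, 2548 of them from WT mouse 2. Among the 3262 nuclei with labels the rule leaves out, 8 held 2 or more Eomes UMIs, 7 of them from SCA1 mice.

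**Figure D3:**
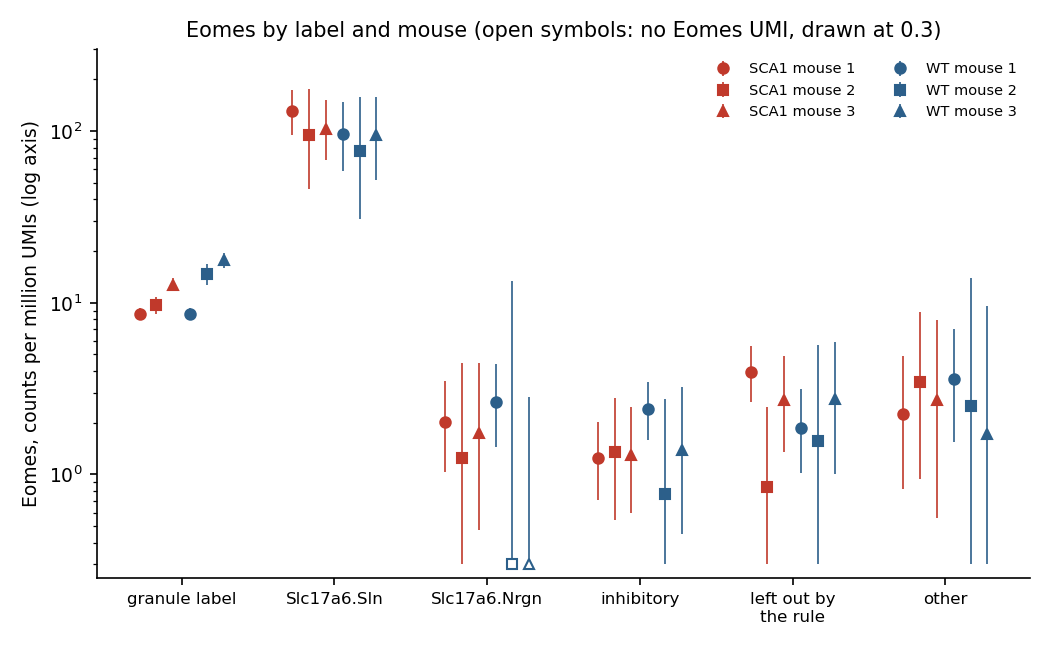
Eomes level in counts per 1000000 UMIs (log axis) by the authors' label, with 1 point per mouse and exact 95% Poisson intervals that cover counting error only. All 6 mice have Eomes at 76.4 to 130 CPM in Slc17a6.Sln-labelled nuclei, at 8.56 to 17.7 CPM in granule-labelled nuclei and below 4 CPM in the other labels, and the 2 open symbols at the lower edge are mice without an Eomes UMI in that label.

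Eomes levels overlapped between the genotypes in both labels. In granule-labelled nuclei the mean was 10.3 ± 2.17 CPM (SD, n = 3) in SCA1 and 13.7 ± 4.62 CPM (n = 3) in WT (p = 0.3, two-sided exact permutation test over mice, whose smallest possible p is 0.1). Within the 2 ranges of library numbers, SCA1 minus WT was -0.0569 CPM and -4.96 CPM. In Slc17a6.Sln-labelled nuclei the means were 110 ± 18.4 and 89.1 ± 10.9 CPM (exact permutation p = 0.2, n = 3 per genotype). Eomes-rich nuclei made up 0.817%, 0.610% and 1.14% of the nuclei of the SCA1 mice and 0.870%, 0.253% and 2.24% of those of the WT mice. The WT mice held both the lowest and the highest share, so the genotypes overlapped. SCA1 minus WT was -0.264 percentage points (exact permutation p = 0.8, n = 3 per genotype), with -0.0530 and -0.369 within the library ranges. Without WT mouse 3, the mouse of the highest share, the difference was 0.294. The Slc17a6.Sln label took 0.239%, 0.166% and 0.234% of the nuclei in SCA1 and 0.172%, 0.313% and 0.328% in WT (exact permutation p = 0.3, n = 3 per genotype). The exact binomial 95% interval of a single mouse reached from 0.0860% to 0.290% in SCA1 mouse 2, which covers counting error only.

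The difference between Eomes-rich nuclei and granule-labelled nuclei without an Eomes UMI is given as a description, since the rule set the groups. It used 6085 genes with at least 20 CPM on average and 10 counts per mouse in the higher set, scaled by TMM, which aligns libraries on the bulk of their genes. At least 4-fold higher in every mouse were 2 genes (0.0329% of those considered), and none was at least 4-fold lower in every mouse. Without WT mouse 2 the count was 33, and with at least 3 Eomes UMIs, with nuclei of at least 3000 UMIs or after thinning to 2000 UMIs it was 0. At 3 or more Eomes UMIs, WT mouse 2 gave 1 nucleus. Rgs6, a regulator that speeds the deactivation of G proteins, had a mean log2 ratio of 5.66 (3.63 to 6.77 over the 6 mice), with a mean of 541 against 10.3 TMM-scaled CPM. Lingo2, a leucine-rich repeat membrane protein of neurons, had a mean log2 ratio of 5.18 (3.48 to 7.36), with 521 against 13.9 TMM-scaled CPM. Both genes were carried by the Slc17a6.Sln-labelled nuclei. Rgs6 was at 4909 CPM in those 34 nuclei, 57.3 CPM in the granule-labelled Eomes-rich nuclei and 12.1 CPM in granule-labelled nuclei without Eomes, and Lingo2 at 3920, 64.3 and 16.5 CPM. The granule-labelled Eomes-rich nuclei alone had no gene 4-fold apart in every mouse. Among the genes of the 19 lists described here, such as glutamate receptors, GABA and glycine receptors, rhombic lip transcription factors and cerebellins, none was 4-fold apart in every mouse between Eomes-rich and granule-labelled nuclei.

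The Slc17a6.Sln-labelled nuclei were far more distinct. Against granule-labelled nuclei without Eomes, all 104 of them had 112 genes at least 4-fold higher in every mouse (1.8% of 6234 considered) and 132 at least 4-fold lower (2.12%). These labels were assigned from the RNA, so this too is a description. Of the markers, Samd3 (mean log2 ratio 9.65), Lmx1a (9.11) and Sln were among the higher genes, while Plcb4 and Calb2 were not. The largest ratios also included those of Sntg2, a syntrophin (9.18), Hs3st2, a heparan sulfate sulfotransferase (8.91), Rgs6 (8.78), the secreted proteins Tafa2 (8.28) and Vwc2l (8.20), Lingo2 (8.05), Grm8, a presynaptic group III metabotropic glutamate receptor (7.85), and Cdh12, a cadherin (7.76). Of the channels and receptors, the large-conductance potassium channel Kcnma1 (5.31), the glycine receptor subunit Glra2 (4.67) and the delta glutamate receptor Grid1 (4.50) were higher in every mouse. Lower in every mouse were the splicing factor Rbfox1 (-6.27), the neuregulin receptor Erbb4 (-5.47), the peptidase Trhde (-5.46), Cadps2, a vesicle priming factor (-5.36), and the receptor subunits Grin2a (-5.02), Grik2 (-4.53), Gabra6 (-4.45), Gria4 (-4.34), Grin2c (-3.95) and Gabrb2 (-3.45). Eomes-rich nuclei as a whole, 87.6% of them granule-labelled, reached this pattern only for Rgs6 and Lingo2.

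Whether a single Eomes molecule goes with other RNAs inside the granule label was asked with nuclei that the rule did not take. Granule-labelled nuclei with exactly 1 Eomes UMI were compared with 3 nuclei each that held none, from the same mouse, of the nearest total UMIs, all under 30000 UMIs. There were 426, 195 and 326 such nuclei with 1 UMI in the SCA1 mice, and the WT mice gave 422, 176 and 197. Counts were summed per mouse and tested by edgeR's quasi-likelihood test with mouse as a term, over all genes tested. Of 12315 genes, 239 passed an adjusted p of 0.05 (1.94%), with 134 higher (1.09%) and 105 lower (0.853%) where the Eomes UMI was present. The changes were small, with a median size of 0.27 on the log2 scale (0.11 to 1.48), and 178 of the 239 went one way in all 6 mice, where among all genes tested 3.05% were higher and 3.37% lower in all 6. DESeq2 called 157 genes (1.27%), 151 of them among the 239 and in the same direction, and gave no adjusted p to 59 of the 239. Without SCA1 mouse 3, 108 genes passed, and without any other single mouse 186 to 233. The comparison was added after the labels of the Eomes-rich nuclei had been seen. Nuclei were matched by mouse and UMIs but not by the authors' cluster, and Eomes differed between granule-labelled clusters. In SCA1 mouse 3 it was at 5.49 CPM in cluster 0 and 32.4 CPM in cluster 8. The part of the clusters in the 239 calls was not tested.

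Among the genes that rose with an Eomes UMI were 3 orphan nuclear receptors of the NR4A family, which neuronal activity induces. Nr4a3 rose by 1.05 ± 0.105 (log2, SE; edgeR adjusted p = 3.59e-09). In TMM-scaled CPM it stood at 26.3 with and 12.6 without an Eomes UMI in SCA1 mouse 1, at 26.4 and 13.2 in mouse 2 and at 57.0 and 28.8 in mouse 3. The WT mice had 18.6 and 8.80, 54.7 and 14.9, and 80.3 and 43.3. It was higher with Eomes in each of the 6 mice. Nr4a2 rose by 0.75 and Nr4a1 by 0.62, also in all 6 mice. Named after their values were seen, the activity-induced genes Fos (0.56, edgeR adjusted p = 0.0144) and Homer1 (0.34, adjusted p = 0.000783) passed the test as well, while Junb (0.42, adjusted p = 0.405), Egr1 (0.09, adjusted p = 0.946) and Jun (0.02, adjusted p = 0.999) did not pass it.

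The 250 bases before the RefSeq start (GRCm38.p6) of the 3 NR4A genes are shown because the genes rose together. GENCODE M21, used for the other gene positions, starts Nr4a1 at 101254269 and Nr4a3 at 48045153. By those starts the Nr4a1 window lies inside the gene and the Nr4a3 window partly inside it. Capitals mark TGACG, the half-site of the cAMP response element, on either strand (CGTCA on the strand shown). The windows lie at chr15:101266596-101266845 on the plus strand for Nr4a1, chr2:57124004-57124253 on the minus strand for Nr4a2 and chr4:48045055-48045304 on the plus strand for Nr4a3, and are written 5′ to 3′ of the gene.
Nr4a1: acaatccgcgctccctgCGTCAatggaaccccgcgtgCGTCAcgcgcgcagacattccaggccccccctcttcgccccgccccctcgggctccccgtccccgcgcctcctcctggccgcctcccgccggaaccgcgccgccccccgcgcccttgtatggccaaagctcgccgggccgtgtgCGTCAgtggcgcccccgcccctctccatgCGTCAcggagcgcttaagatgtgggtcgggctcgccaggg
Nr4a2: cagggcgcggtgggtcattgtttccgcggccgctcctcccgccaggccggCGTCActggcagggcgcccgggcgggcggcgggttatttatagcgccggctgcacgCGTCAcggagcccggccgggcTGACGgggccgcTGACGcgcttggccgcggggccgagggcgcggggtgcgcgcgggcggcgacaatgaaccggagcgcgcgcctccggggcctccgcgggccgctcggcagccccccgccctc
Nr4a3: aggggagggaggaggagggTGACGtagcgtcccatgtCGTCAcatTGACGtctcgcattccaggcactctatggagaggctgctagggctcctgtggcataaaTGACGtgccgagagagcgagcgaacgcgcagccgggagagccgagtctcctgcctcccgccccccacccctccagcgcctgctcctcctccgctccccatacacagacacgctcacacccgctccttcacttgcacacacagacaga
Each of the 3 windows held 4 half-sites and none the full element TGACGTCA. Of 26994 genes with such a window, 19.8% held at least 1 half-site, 0.778% at least 3 and 1.77% the full element. These letters are a description chosen after the values were seen, and do not show that a factor binds there.

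Galntl6, a glycosyltransferase family member, had the smallest p of all genes and rose by 0.98 ± 0.0799 (edgeR adjusted p = 7.73e-11). In TMM-scaled CPM it stood at 224 with and 118 without Eomes, 337 and 107, and 540 and 216 in the SCA1 mice. The WT values were 195 and 155, 368 and 147, and 383 and 220. The other named genes that rose in all 6 mice were Pcsk1, a convertase that cuts neuropeptide precursors (1.07), the netrin receptor Dcc (0.85), the sorting receptor Sorcs1 (0.72), the nuclear envelope protein Syne2 (0.71), the kinase Mapkapk3 (0.69) and the growth factor Tgfa (0.62). Genes that fell in all 6 mice were the contactin Cntn5 (-1.06), the ciliary gene Hydin (-0.86), the matrix protein Smoc1 (-0.83), the forkhead factor Foxp2 (-0.82), the adhesion molecules Sdk1 (-0.72), Tenm3 (-0.66) and Cdh20 (-0.58), the actin-binding Afap1 (-0.61), the Wnt enhancer Rspo3 (-0.53) and the potassium channel Kcnk2 (-0.51). In single mice some of these changes were slight or rested on few UMIs. Cdh20 stood at 47.5 TMM-scaled CPM with and 47.6 without Eomes in SCA1 mouse 1, where Tgfa stood at 14.8 and 14.5. In WT mouse 3, Tenm3 stood at 14.3 and 14.6 and Hydin at 15.8 and 16.0. With Eomes, Smoc1 was at 1.76 in SCA1 mouse 2, and Foxp2 at 1.82 and 0 in WT mice 2 and 3. Without matching for depth, the log2 change of Tenm3 was 0.02. Of these 20 named genes, Hydin and Cdh20 lost the call without SCA1 mouse 3, Foxp2 and Tenm3 without SCA1 mouse 1 or 3, and Kcnk2 without SCA1 mouse 2 or 3 or WT mouse 3. Tgfa lost it without any mouse but SCA1 mouse 1 and WT mouse 3, Smoc1 without any but WT mice 2 and 3, Mapkapk3 without any but WT mouse 3 and Afap1 without any but WT mouse 1. The other 11 named genes passed whichever mouse was left out, the NR4A genes and Galntl6 among them.

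Receptors, channels and markers were read by list, against 1.09% of all genes tested that rose and 0.853% that fell. Among ionotropic glutamate receptors 1 of 17 rose and 2 fell, and among 8 granule neuron markers 0 rose and 2 fell, shares above those over all genes except for the markers that rose. No gene passed among calcium-binding proteins, glutamate loading genes or the markers of Purkinje cells, inhibitory interneurons and glia. Genes that rose were the obligatory NMDA receptor subunit Grin1 (0.13), the GABA-A subunit Gabrb1 (0.21), the neuroligin Nlgn1 (0.15) and the A-type potassium channel Kcnd3 (0.33). The phospholipase Plcb1 fell (-0.37), as did the T-type calcium channel Cacna1i (-0.45), the M-current channel Kcnq3 (-0.31), the phosphatase subunit Ppp2r2b (-0.22), the AMPA receptor subunits Gria4 (-0.16) and Gria2 (-0.12), and the granule markers Etv1 (-0.16) and Rbfox3 (-0.15). Of the markers of unipolar brush cells, Slc17a6 (0.13), Plcb4 (0.01) and Calb2 (-0.08) did not pass.

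In the granule-labelled Eomes-rich nuclei, the same genes are described without a test, since the rule chose those nuclei. They share the mice and the pool of nuclei without Eomes with the comparison at 1 UMI, and were matched for UMIs in the same way. Galntl6 was higher in each mouse, with a mean log2 ratio of 1.53 (0.66 to 3.00), and so was Nr4a3, with 1.38 (0.67 to 2.49). Nr4a1 had 0.81 (0.24 to 2.18) and Mapkapk3 0.75 (0.20 to 1.83). Sdk1 was lower in each mouse, with -1.43 (-2.75 to -0.23), and so was Kcnk2, with -1.01 (-2.30 to -0.02). The other named genes changed sign between mice: Dcc ran from -2.05 to 2.01, Foxp2 from -3.69 to 2.14 and Tenm3 from -1.71 to 2.39. Values of WT mouse 2 come from 16 nuclei and carry the largest counting error.

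**Figure D4:**
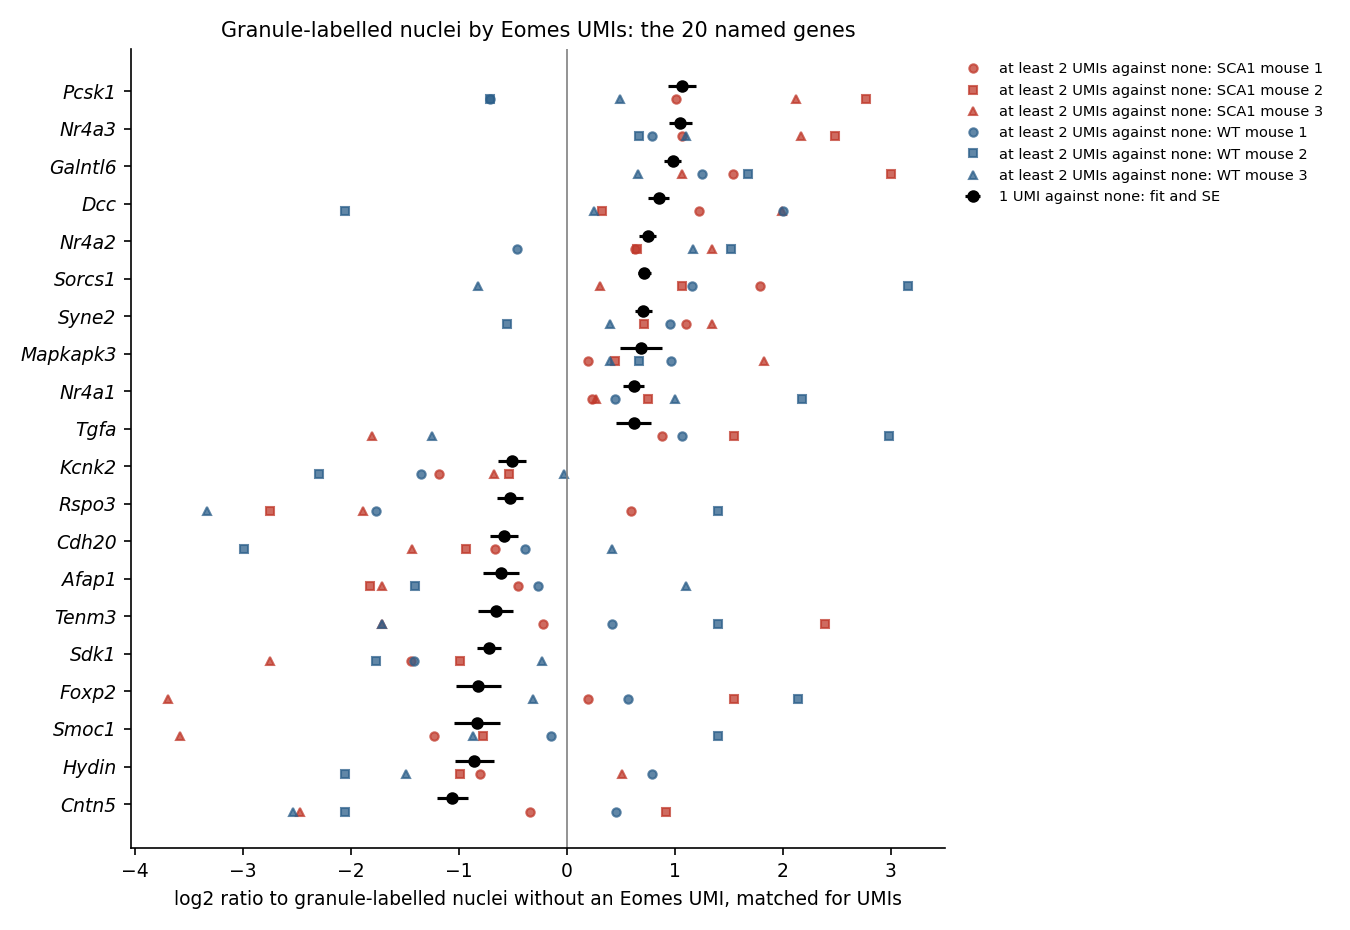
Log2 ratio of granule-labelled nuclei with Eomes to depth-matched granule-labelled nuclei without it, for the 20 named genes. Black points with bars are the fit and SE at 1 Eomes UMI over 6 mice, and coloured symbols are single mice at 2 or more UMIs, where Galntl6, Nr4a3, Nr4a1 and Mapkapk3 lie above 0 and Sdk1 and Kcnk2 below 0 in all 6.

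The difference with 1 Eomes UMI was also compared between genotypes. Of 13259 genes, 3 passed (0.0226%), all with a higher ratio in SCA1 mice, while 479 had an unadjusted p under 0.05 (3.61%). DESeq2 called 0 (39 at an unadjusted p under 0.05), and the edgeR fit without the batch term 0 (452 unadjusted). The 3 were the neuregulin Nrg1 (1.39 ± 0.269, edgeR adjusted p = 0.0195), the synaptic adhesion protein Lrrtm4 (1.23 ± 0.225, adjusted p = 0.00992) and Galntl6 (0.53 ± 0.0914, adjusted p = 0.00645). For Nrg1 the log2 ratios were 0.50, 0.34 and 0.18 in the SCA1 mice, while the WT mice had -0.88, -1.26 and -0.79, so the genotypes did not overlap, as was so for 9.47% of all genes tested. The ratios of Lrrtm4 (SCA1 0.99, -1.29 and 0.80) and of Galntl6 overlapped between genotypes.

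Within the Eomes-rich nuclei, no gene passed the test between SCA1 and WT mice. Of 9323 genes, 0 had an adjusted p of 0.05 or less (0%) in edgeR's quasi-likelihood test on the sums per mouse, with the library range as a term. An unadjusted p under 0.05 was found for 323 genes (3.46%), and DESeq2 called 16 (0.172%). The SCA1 mice all lay on one side of the WT mice for 806 genes (8.65%). Of these, genes among the smallest p in each direction are described. Grm8 stood at 344, 441 and 486 TMM-scaled CPM in the SCA1 mice and at 86.4, 96.5 and 216 in the WT mice, a log2 difference of 1.59 ± 0.271 (edgeR adjusted p = 0.0930). The synaptic adhesion protein Lrfn5 stood at 160, 136 and 90.2 against 58.4, 27.6 and 28.6 (1.70 ± 0.286). In the other direction, the calsyntenin Clstn2 stood at 207, 170 and 136 against 390, 759 and 563 (-1.65 ± 0.283), Rgs8 differed by -0.84 and Phc2 by -0.67. The adjusted p of Lrfn5 and Clstn2 was also 0.0930, and that of Rgs8 and Phc2 was 1.00 (edgeR). In DESeq2 the adjusted p was 0.00119 for Grm8, 0.00129 for Clstn2 and 0.00477 for Lrfn5. The count of 0 turned on single mice. Without SCA1 mouse 2 it was 82, without SCA1 mouse 3 it was 68, without SCA1 mouse 1 it was 3, without WT mouse 1 it was 2, without WT mouse 3 it was 4 and without WT mouse 2 it stayed at 0. None of the 19 lists had a gene past the test.

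The shares of the labels within the set are given beside these genes, and their part in the differences was not tested. Slc17a6.Sln-labelled nuclei held 13.6%, 8.10% and 14.7% of the UMIs of the Eomes-rich nuclei in the SCA1 mice, against 2.80%, 4.18% and 6.94% in WT, so that the genotypes did not overlap. By number of nuclei the label took 14.6%, 6.82% and 7.69% in SCA1 and 6.59%, 5.88% and 6.67% in WT. In WT mouse 2 it was 1 nucleus of 2889 UMIs. The share of UMIs depends on the nuclei of at least 30000 UMIs, none of which carried this label. Those held 36.6%, 15.6% and 11.2% of the UMIs in SCA1 and 72.1%, 0% and 28.4% in WT. With those nuclei left out, the share in SCA1 mouse 2 lies below that in WT mice 1 and 3, so the genotypes overlap. Within all 104 Slc17a6.Sln-labelled nuclei, Lrfn5 was at 293, 372 and 330 CPM in SCA1 and at 230, 240 and 325 CPM in WT, a log2 difference of 0.31 with overlapping genotypes. Grm8 differed by -0.02 there, and 0 of 3849 genes passed the test. Within the granule-labelled Eomes-rich nuclei, Grm8 differed by 0.68 and Lrfn5 by -0.07, with 0 genes past the test. The differences of Grm8 and Lrfn5 in the whole set were larger than in either label alone, and the cause was not tested. Clstn2 behaved otherwise. In the granule-labelled Eomes-rich nuclei it was at 236, 184 and 144 CPM in SCA1 and at 406, 830 and 539 CPM in WT (-1.55, edgeR adjusted p = 0.559). Granule-labelled nuclei without Eomes held Clstn2 at 230, 185 and 284 CPM in SCA1 and at 379, 447 and 623 CPM in WT, so the genotypes did not overlap there either.

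**Figure D5:**
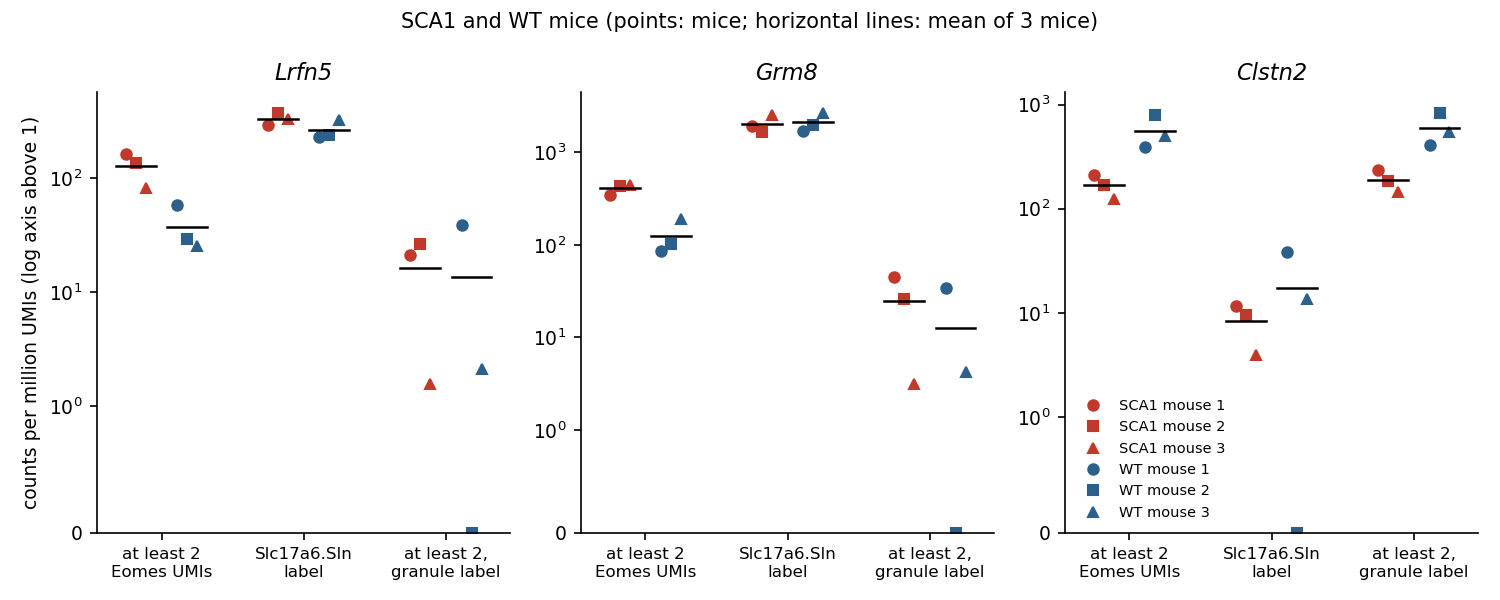
Levels of Lrfn5, Grm8 and Clstn2 in counts per 1000000 UMIs (linear to 1, log above) in SCA1 (red) and WT (blue) mice, for all Eomes-rich nuclei, all Slc17a6.Sln-labelled nuclei and granule-labelled Eomes-rich nuclei, with 1 symbol per mouse and a line at the mean of 3 mice. Lrfn5 and Grm8 do not overlap between genotypes in the mixed set on the left and overlap in the other 2 sets, and Clstn2 is lower in SCA1 in the mixed and the granule-labelled sets.

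The genotype difference was then compared between Eomes-rich nuclei and granule-labelled nuclei without Eomes of the same mice, as an interaction in edgeR. Of 15159 genes, 96 passed (0.633%), with 91 (0.6%) shifted towards SCA1 in the Eomes-rich nuclei and 5 (0.033%) away from it, and DESeq2 called 16, all of them among the 96. Without SCA1 mouse 1, 60 passed, without SCA1 mouse 3, 51, without WT mouse 1, 55, and without WT mouse 3, 54, while 140 passed without SCA1 mouse 2 and 90 without WT mouse 2. Among the smallest p-values were those of Grm8 (1.98 ± 0.194, edgeR adjusted p = 1.84e-20) and Lrrtm4 (1.52 ± 0.160, adjusted p = 1.28e-17). Lrfn5 (2.20) and the contactin-associated Cntnap5b (2.14), whose ratios overlapped between genotypes for Cntnap5b, passed as well. This test pools sums of 17 to 91 Eomes-rich nuclei per mouse with sums of 2501 to 8275 granule-labelled nuclei. Its p-values therefore do not measure the spread among mice of the Eomes-rich nuclei alone. Within those, the edgeR adjusted p of Grm8 was 0.0930. Rgs5, with nearly all its UMIs of SCA1 mouse 1 in 1 nucleus, also passed the interaction (edgeR adjusted p = 0.000172). The part of the Slc17a6.Sln label in the 91 genes was not tested directly. With granule-labelled Eomes-rich nuclei alone, 48 genes passed (0.318%), 16 of them among the 96. With all Slc17a6.Sln-labelled nuclei 6 passed (0.0403%), 4 of them among the 96, and with each nucleus thinned to 2000 UMIs 6 passed. Lower were the cadherin Cdh22 (-0.86), the metalloproteinase Pappa (-0.81) and the ephrin receptor Ephb2 (-0.65), with SCA1 and WT mice not overlapping in the ratio of Eomes-rich to granule-labelled nuclei, which held for 9.55% of all genes tested.

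The 5 largest interaction values came from a single nucleus. Rgs5 (6.66), Ly6a (6.51), Slco1a4 (5.48), Adgrl4 (5.21) and Flt1 (4.76) are genes of pericytes and endothelium. In SCA1 mouse 1, 46 of the 48 Rgs5 UMIs, 32 of 33 of Ly6a, 41 of 44 of Flt1, 23 of 26 of Adgrl4 and 19 of 20 of Slco1a4 lay in 1 granule-labelled nucleus of 37787 UMIs. The next, 4930587E11Rik (4.31), known only by a clone name, was at 2.93, 9.33 and 29.2 TMM-scaled CPM in the Eomes-rich nuclei of the SCA1 mice and at 0, 0 and 4.38 in those of the WT mice. Bnc2 (4.20) had 31 of its 32 UMIs in that mouse in 1 nucleus of 40937 UMIs with the label Neuron.Slc17a6.Nrgn. Bc1, a short neuronal RNA (2.67), was above 0 only in mouse 1 of each genotype among the Eomes-rich nuclei. With nuclei of under 30000 UMIs, 29 genes passed (0.193%), 21 of them among the 96. Listed genes among the 96 included Kcnma1, the AMPA receptor subunit Gria3, the Purkinje markers Itpr1, Calb1 and Car8, the interneuron markers Gad1 and Lgi2, and Rgs5 and Flt1. The deepest Eomes-rich nucleus of SCA1 mouse 3 (31765 UMIs) had the label Neuron.Gad1Gad2.Pcp2. In that mouse the log2 ratio of Eomes-rich to granule-labelled nuclei was 1.17 for Itpr1 and 1.03 for Car8, and below 0 in the other 5 mice. The deepest of SCA1 mouse 2 (63907 UMIs) had the label Neuron.Gad1Gad2.Lgi2. Lgi2 stood at 25.6, 104 and 18.3 TMM-scaled CPM in the SCA1 mice and at 17.1, 0 and 8.79 in the WT mice. The part of those nuclei in the calls was not tested. No gene of the 8 granule neuron markers passed, which says little where 0.633% of all genes did.

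Genes of red blood cells and mitochondria, which in nuclei mark free RNA and RNA quality, were also among the 91, and are named after their values were seen. The globin genes Hba-a1 (1.87, edgeR adjusted p = 2.66e-10), Hba-a2 (1.71, adjusted p = 4.51e-08) and Hbb-bs (1.39, adjusted p = 1.81e-08) passed, as did the mitochondrial genes mt-Nd5 (0.74) and mt-Co1 (0.61). The log2 ratio of Eomes-rich to granule-labelled nuclei for Hba-a1 was 0.28, -0.61 and -0.40 in SCA1 against -1.91, -1.52 and -1.14 in WT, with no overlap. For mt-Co1 it was -0.66, -0.71 and -0.05 against -1.52, -1.42 and -0.50, with overlap. The mean of these ratios was thus lower in WT for both genes. Their part in the other calls was not tested.

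The share of Eomes-rich nuclei with a UMI of a marker was compared between genotypes for 7 genes, at equal depth and with all UMIs. With 3 against 3 mice the exact permutation p cannot fall below 0.1, so no gene could pass the threshold. The test therefore cannot decide whether these shares differ by genotype, and the values are given as a description. At equal depth, with 2000 UMIs per nucleus, Plcb4 was found in 76.2% ± 8.53 (SD, n = 3) of nuclei in SCA1 and 76.0% ± 2.24 (n = 3) in WT. Calb2 was found in 19.0% ± 9.15 and 22.8% ± 20.5, and mouse Atxn1 in 61.5% ± 7.88 and 65.0% ± 7.47. Granule-labelled nuclei without Eomes held a UMI at that depth in 70.3% to 83.8% (Plcb4), 15.1% to 42.3% (Calb2) and 50.4% to 67.1% (Atxn1) over the mice. These ranges hold the means of both genotypes. With all UMIs the order of the means turned, to 58.9% in SCA1 and 47.1% in WT for Calb2 and 93.5% and 84.3% for Atxn1. With all UMIs, Lmx1a was found in 14.6%, 9.09% and 10.3% of the nuclei of the SCA1 mice and in 8.79%, 0% and 6.67% of those of the WT mice. This was the single gene of the 7 whose genotypes did not overlap (exact permutation p = 0.1, the smallest possible with 3 against 3 mice, adjusted p = 0.7 over the 7 genes). In granule-labelled nuclei without Eomes, which should lack Lmx1a, 0.160% to 0.568% of nuclei held a UMI of it. Human ATXN1, the transgene, had 4 UMIs in 3 Eomes-rich nuclei of SCA1 mice and 0 in those of WT mice. Reads of the ATXN1 row also occurred in WT mice. In granule-labelled nuclei without Eomes it stood at 0.547, 1.22 and 0.975 CPM in the SCA1 mice and at 0.405, 1.17 and 0.798 CPM in the WT mice, while in Purkinje-labelled nuclei it stood at 4.74, 13.9 and 10.9 CPM in the SCA1 mice and at 0 in all 3 WT mice. Its level in Eomes-rich nuclei thus did not separate from this background.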

How the data were processed

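Single-nucleus RNA sequencing had been done on whole cerebella of 6 mice, 1 library each. The authors deposited raw UMI counts per gene and nucleus, with introns counted, on mm10 with the human ATXN1 locus added. They removed debris with DIEM, clustered the nuclei in Seurat and named them with SingleR against the DropViz reference. The submitters' processing notes name Cell Ranger 4.0.0, 5.0.1 and 6.0.1, R 4.1.0 and Seurat 4.0.4. The strand setting of the counting is not given in the sources used here. Removing debris fixes which shallow nuclei remain, and a label assigned from RNA makes any contrast between labels partly circular.

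Nuclei were chosen by Eomes UMIs and label, and their counts were summed per mouse, since nuclei are not replicates and the 3 mice of a genotype are. The members, gene lists (19 lists, 167 genes) and tests were chosen with earlier results of these data known, and the split by 1 Eomes UMI, its named genes and the promoter windows were chosen after the labels of the nuclei had been seen. No label contains the word granule, so Neuron.Slc17a7.Gabra6 was read as the granule label. No doublet caller was run, and nuclei of 30000 UMIs or more were left out as an alternative.

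Sums were tested with edgeR 4.0.16 in R 4.3.3 (quasi-likelihood test, TMM, filterByExpr at its defaults of 10 counts and 15 in total, Benjamini-Hochberg at 0.05 over all genes tested). Eomes was left out of every test across genes, and its level was compared between genotypes by the permutation test below. Some items that the rules name are not reported here. Genotype was tested with the library number range (below or above 7700) as a term, after the study's own design, and the split within a mouse with the mouse as a term. Ratios per mouse had 0.5 added to each count. For single values an exact two-sided permutation test over mice was used (SciPy 1.17.1), and matched or thinned nuclei were drawn with a fixed seed. Intervals cover counting error only.

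In each comparison the named genes were the listed ones plus up to 10 in each direction, by size of change among those past the test, in the split only those of the same sign in all mice. For genotype the 3 of smallest p in each direction among genes without overlap were added. Mitochondrial genes and those known only by a clone name were counted and named only where fewer than 3 others were left. The alternatives were DESeq2 1.42.0, other scalings, no filter on low counts, no batch term, the mouse number as a block, single mice left out, stricter or deeper membership, other labels and thinning to 2000 UMIs. Gene positions came from GENCODE M21, in which 31424 of 32286 gene rows were found by symbol. Scripts were tested on simulated counts first.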

Additional observations from a re-analysis of the deposited data

Results flagged for a closer look

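Each result here was singled out by a test of a difference between groups. In the interaction of genotype and kind of nucleus, Eomes-rich against granule-labelled, 96 genes passed. Leaving out genes known only by a clone name, of which 4930587E11Rik (4.31) ranked above Bnc2, those with the largest log2 values were Rgs5 (6.66), Ly6a (6.51), Slco1a4 (5.48), Adgrl4 (5.21), Flt1 (4.76) and Bnc2 (4.20), whose UMIs in SCA1 mouse 1 lay almost wholly in a single nucleus each, and Bc1 (2.67), found in mouse 1 of each genotype. Lrfn5 (2.20) had a higher ratio of Eomes-rich to granule-labelled nuclei in all SCA1 mice than in all WT mice. Cdh22 (-0.86), Pappa (-0.81) and Ephb2 (-0.65) had a lower ratio in all SCA1 mice. The ratios of Cntnap5b (2.14) overlapped, at log2 values of 3.36, 0.06 and 4.10 in SCA1 and 2.08, -2.43 and -0.86 in WT. The share of UMIs from Slc17a6.Sln-labelled nuclei was higher in all 3 SCA1 mice than in all 3 WT mice, and its part in these values was not tested. That share depends on the nuclei of at least 30000 UMIs, none of them with this label, which held 72.1% of the UMIs of WT mouse 1. With those nuclei left out, the share in SCA1 mouse 2 lies below that in WT mice 1 and 3, so the genotypes overlap. The 96 also held the globin genes Hba-a1 (1.87), Hba-a2 (1.71) and Hbb-bs (1.39) and the mitochondrial genes mt-Nd5 (0.74) and mt-Co1 (0.61).

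In the interaction of genotype with the presence of 1 Eomes UMI in granule-labelled nuclei, Nrg1 (1.39), Lrrtm4 (1.23) and Galntl6 (0.53) passed in edgeR, and none of them in DESeq2 or without the batch term.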

How the results depend on the processing

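Counts of genes past the test depended on which nuclei were taken. Between genotypes, the count of 0 became 16 in DESeq2, 65 without a filter on low counts, 139 with at least 3 Eomes UMIs and 3 without the granule label, and ran from 0 to 82 when 1 mouse was left out. In WT mouse 2, 1 Eomes-rich nucleus held at least 3 Eomes UMIs and 1 lacked the granule label. All counts under these 2 settings rest on 1 nucleus in that mouse. The interaction with the kind of nucleus (96) gave 16 in DESeq2, 164 with at least 3 Eomes UMIs, 3 without the granule label, 1 in the cluster that held most of the nuclei, 29 under 30000 UMIs, 6 after thinning, 48 with the granule label, 6 in all Slc17a6.Sln-labelled nuclei and 51 to 140 without 1 mouse. The split by 1 Eomes UMI (239) gave 157 in DESeq2, 555 without matching for depth, 53 in the WT mice alone and 108 to 233 without 1 mouse. Its comparison between genotypes (3) gave 0 in DESeq2 and 0 without the batch term. The description at 4-fold (2 genes) gave 0 with at least 3 Eomes UMIs, in the leading cluster, above 3000 UMIs, after thinning and with the granule label, 244 in all Slc17a6.Sln-labelled nuclei and 2 to 33 without 1 mouse. Other scalings left these counts within 1.5 times, except that they were not run for the comparison of the split between genotypes. The cause of these shifts was not tested.

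Signs turned for Lrfn5 between genotypes with the granule label (-0.071), for Grm8 in all Slc17a6.Sln-labelled nuclei (-0.025), for Clstn2 without the granule label (0.19) and for Tenm3 in the 1 Eomes UMI split without matching (0.019). The share of Eomes-rich nuclei, SCA1 minus WT, was 0.0131 percentage points without the granule label, 0.0327 after thinning and -0.697 to 0.294 without 1 mouse. The difference in the share of nuclei with a UMI, SCA1 minus WT, also turned its sign for Calb2 and Atxn1. With 2000 UMIs it was -3.80 points for Calb2 and -3.52 for Atxn1, and with all UMIs 11.8 and 9.22. Among the named genes of the 1 Eomes UMI split, DESeq2 gave no adjusted p to 15 of 20.

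Mice share a number across genotypes, but no label ties the numbers to litters. Deviations of same-numbered mice correlated at 0.36, 0.063 and 0.35 over 9323 genes, so 1 pair lay below 0.1 and the numbers were not taken as pairs, although each mouse correlated best with its own number. With the mouse number as a block in place of the library range, 81 genes passed between genotypes and 100 in the interaction.

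Depth limits these results. WT mouse 2 gave 17 Eomes-rich nuclei, 3 mice per genotype allow no exact permutation p below 0.1, and genes of few UMIs could not be tested.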
